A study of Rattus norvegicus with 6 samples.

Results

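Neuronal commitment genes are those that a neural stem cell switches on as it becomes a neuron, and 10 of them were read here: the transcription factors *Neurog2*, *Neurod1*, *Neurod4* and *Sox11*, the cytoskeletal genes *Dcx*, *Tubb3*, *Map2* and *Stmn2*, and the RNA-binding protein genes *Elavl3* and *Rbfox3*. They were taken by gene symbol from the 17315 rows of the expression tables. A row was found for 9 of the 10, and *Neurog2* was not analysed here. The cells were adult rat hippocampal NSCs (the HCN line, cloned from rat hippocampus). They were transfected with a control duplex of Stealth RNAi siRNA (siControl) or with 1 duplex against *Derl1* (siDerl1), the gene of the endoplasmic reticulum protein Derlin-1. Each group had 3 samples, numbered 1 to 3. Both groups had first been kept in proliferation medium with the growth factor bFGF, and then for 2 days in quiescence medium with bFGF and BMP4, a growth factor that drives them into quiescence. There was thus no sample without BMP4, no untransfected sample and no differentiated neuron to set the values against, and what the duplex does by itself and what the loss of Derlin-1 does cannot be told apart. Values are TPM, the share of transcripts corrected for length and scaled to a sum of 1000000 in each sample, so that levels of different genes can be set side by side. TPM keeps no read number, and the depth behind each value is therefore unknown.

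In adult hippocampal neurogenesis, a stem cell that leaves quiescence gives rise to intermediate progenitors, which pass through a phase with proneural bHLH factors and then become doublecortin-positive immature neurons. Neurogenin and NeuroD proteins bind DNA at E-boxes and turn on neuronal genes, and Sox11 with its relative Sox4 acts on the promoters of *Dcx* and *Tubb3*. Tubulin, microtubule-binding proteins and Elav-like proteins follow as the cell extends neurites, and *Rbfox3*, which encodes the antigen NeuN, marks neurons that have matured.

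The 250 bases before the annotated start were read for the member genes whose levels the results below turn on: *Dcx*, the only tested member past the fold limits, *Tubb3*, whose groups lay apart in the other direction, *Sox11*, which followed the sample number, and *Neurod1*, a bHLH factor that was present at a trace only. They come from RefSeq on assembly GRCr8, while the reads had been mapped to rn6. An entry was found for 8 of the 10 genes. Each line gives the strand of the gene 5′ to 3′ in lower case, and capitals mark the E-box, searched as CANNTG, which reads the same on both strands.
Dcx, chrX:112304162-112304411, minus strand: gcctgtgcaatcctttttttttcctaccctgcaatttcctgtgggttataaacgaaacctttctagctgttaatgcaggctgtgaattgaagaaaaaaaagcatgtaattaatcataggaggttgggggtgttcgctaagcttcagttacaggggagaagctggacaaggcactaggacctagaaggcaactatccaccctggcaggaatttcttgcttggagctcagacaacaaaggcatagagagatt
Tubb3, chr19:68365437-68365686, plus strand: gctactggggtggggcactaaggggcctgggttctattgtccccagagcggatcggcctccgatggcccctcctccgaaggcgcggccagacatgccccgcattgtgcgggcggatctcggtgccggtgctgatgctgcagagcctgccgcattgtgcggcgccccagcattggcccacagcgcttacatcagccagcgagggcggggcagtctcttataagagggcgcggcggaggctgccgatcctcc
Sox11, chr6:49738795-49739044, minus strand: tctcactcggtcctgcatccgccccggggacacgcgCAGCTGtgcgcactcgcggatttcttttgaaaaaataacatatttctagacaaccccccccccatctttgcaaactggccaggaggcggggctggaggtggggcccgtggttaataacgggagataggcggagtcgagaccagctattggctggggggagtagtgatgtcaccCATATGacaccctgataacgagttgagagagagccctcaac
Neurod1, chr3:84770455-84770704, minus strand: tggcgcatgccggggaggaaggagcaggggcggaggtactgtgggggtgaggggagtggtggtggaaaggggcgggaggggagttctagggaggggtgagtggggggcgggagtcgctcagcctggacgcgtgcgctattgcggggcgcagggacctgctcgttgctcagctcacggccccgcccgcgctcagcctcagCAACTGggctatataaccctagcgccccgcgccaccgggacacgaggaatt
The *Dcx* and *Tubb3* windows held no E-box. The *Sox11* window held 2, which begin 214 and 41 bases before the start, and the *Neurod1* window held 1, which begins 51 bases before it. Of the 8 genes with an entry, 4 had an E-box in this window, and so did 65.5% of all 33469 windows of that length. The windows also differed in composition, with 2 CG dinucleotides before *Dcx* and 21 each before *Tubb3* and *Neurod1*, where the median over all windows was 5. A match of letters is a description of the window and says nothing of whether a factor binds there.

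Of the 9 genes, 5 had a mean of at least 1 TPM and 4 had a mean below it. *Tubb3*, which encodes the neuronal β-tubulin, was the highest, at 73.3 TPM over the 6 samples. It was followed by *Sox11* at 41.5, *Map2* at 34.6, *Elavl3* at 26.2 and *Dcx* at 8.41 TPM. The other 4 had a mean under 1 TPM: *Rbfox3* at 0.618, *Neurod1* at 0.348, *Neurod4* at 0.267 and *Stmn2* at 0.0217 TPM. Among the 12822 genes with a value above 0 in any sample, *Tubb3* was above 79.3% and *Dcx* above 33.3%, whereas *Neurod4* was above 13.1% and *Stmn2* above 1.97%. In this order *Tubb3* was above *Sox11* in every sample, with its lowest value at 58.8 and the highest of *Sox11* at 57.4 TPM. The ranges of *Sox11* and *Map2* overlapped, as did those of *Map2* and *Elavl3*, of *Rbfox3* and *Neurod1*, and of *Neurod1* and *Neurod4*. The steps from *Elavl3* to *Dcx*, from *Dcx* to *Rbfox3* and from *Neurod4* to *Stmn2* were larger than the spread over the samples. Summed, the 9 genes held 171 to 211 TPM in each sample, and between 93.8% and 96.6% of that sum came from *Tubb3*, *Sox11*, *Map2* and *Elavl3*.

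**Figure D1:**
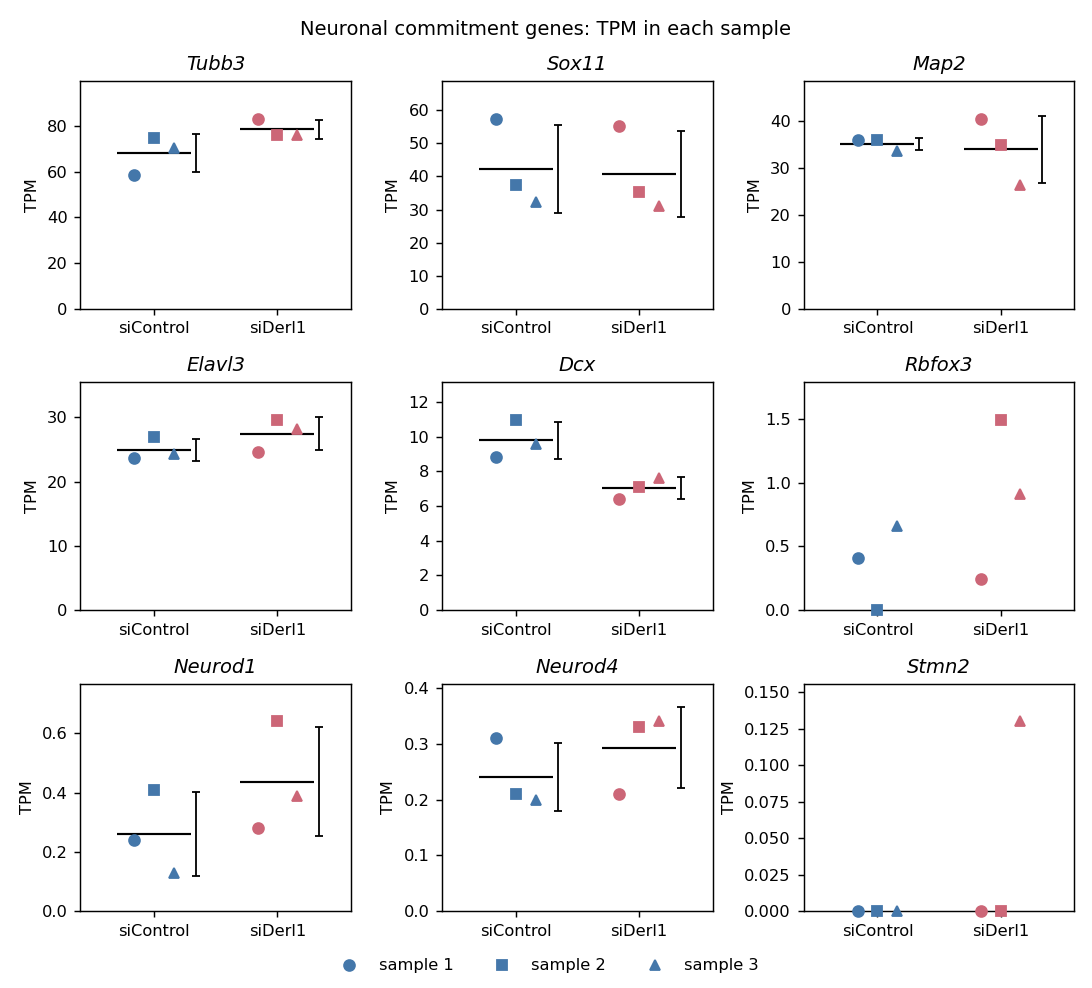
TPM (linear axes from 0, a separate scale for each gene) of the 9 neuronal commitment genes in the siControl (blue) and siDerl1 (red) samples, with the symbol showing the sample number, the line the mean and the bar the SD of 3 samples. *Rbfox3* and *Stmn2* are listed at 0 in some samples and carry no mean or SD. *Dcx* was lower in each siDerl1 sample than in every siControl sample, and *Sox11* was highest in both samples numbered 1.

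The targeted gene was read before these. The level of *Derl1* averaged 127 ± 5.19 TPM with the control duplex and 63.2 ± 15.98 TPM with siDerl1 (SD, n = 3 each), with no overlap. Its log2 fold change on the log2(TPM + 1) scale was −1.03 (SE 0.18). In limma over the 10331 genes whose mean reached 1 TPM, the adjusted p was 0.497, and 0.00884 with the sample number as a block. The blocked call did not hold with other settings, at 0.104 when low genes were kept and at 0.229 with no intensity trend. The knockdown was not equal across the samples. The siDerl1 samples were at 44.9, 70.8 and 74.0 TPM for the numbers 1, 2 and 3.

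The cells were also checked against markers. Of the 12 neural stem cell markers 11 had a row and 10 were tested, with *Sox2*, the stem cell factor, at 483 and 512 TPM in siControl and siDerl1 NSCs, and only *Prom1* listed at 0. *Nes*, which encodes the filament protein nestin, was the only one whose groups lay apart, or 10% of those tested, beside 13.6% of all genes. It was at 125 ± 12.2 TPM in siControl and 104 ± 6.22 TPM in siDerl1 NSCs (SD, n = 3 each), with a log2 fold change of −0.26 and an adjusted p from limma of 0.704. It, *Aldoc* and *Gfap* are named after their values were seen. The summed level of these markers was between 4094 and 5973 TPM. Oligodendrocyte lineage markers summed to between 1845 and 2388 TPM, with 7 of 10 tested, *Sox10* at 645 and 659 TPM, and *Mog*, which marks mature oligodendrocytes, listed at 0. *Pdgfra*, named after its values were seen, was at 50.3 ± 17.2 and 36.4 ± 6.99 TPM (SD, n = 3 each), and its groups overlapped. Its log2 fold change was −0.42. It was past the fold limits given below only with the block, as were 3.53% of all genes, with a blocked adjusted p of 0.113 from limma. Astrocyte markers summed to between 1097 and 1572 TPM, with *Aqp4* and *Aldh1l1* under 1 TPM in every sample. Their sums overlapped between the groups, at 1097 to 1335 TPM in siControl and 1180 to 1572 TPM in siDerl1 NSCs. The 4 astrocyte markers tested all had a positive log2 fold change, with a median of 0.30. From limma 0 of them were past the fold limits given below and 0 had an adjusted p under 0.05, while 1 had an unadjusted p under 0.05, beside 6.7% of all genes. This was *Aldoc*, which encodes a glycolytic aldolase, and its groups lay apart, at 661 ± 41.7 and 788 ± 67.5 TPM (SD, n = 3 each). It was the only one of the 4 to do so, or 25%, beside 13.6% of all genes. *Gfap*, which is in the stem cell list and is also an astrocyte gene, was at 34.5 ± 10.8 and 53.0 ± 11.5 TPM (SD, n = 3 each). Its log2 fold change was 0.62, with an unadjusted p of 0.0276, and it was past these limits with and without the block. Its adjusted p from limma was 0.704, or 0.0219 with the sample number as a block, and with the block it was 0.111 when low genes were kept and 0.229 with no intensity trend. The part of these markers in the differences of neuronal genes was not tested. The 7 microglia markers summed to at most 5.72 TPM and the 6 endothelial and mural markers to at most 1.46 TPM, with *Cx3cr1*, *Cldn5* and *Cdh5* listed at 0. Most of the microglia sum was *P2ry12*, at 3.48 to 5.41 TPM, which was named after its values were seen. These are whole cultures, so fewer cells that express a neuronal gene and less of its RNA in each cell cannot be told apart in any value below.

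The proneural and differentiation factors were the first group. *Neurod1*, a bHLH factor of immature granule neurons, was at 0.24, 0.41 and 0.13 TPM in siControl samples 1, 2 and 3 and at 0.28, 0.64 and 0.39 TPM in the siDerl1 samples. *Neurod4*, a bHLH factor related to it, was at 0.31, 0.21 and 0.20 TPM in the siControl samples and at 0.21, 0.33 and 0.34 TPM in the siDerl1 samples. Both were thus present at a trace in all 6 samples, and the groups overlapped for each. The exact permutation test gave a two-sided p of 0.3 for *Neurod1* and of 0.3 for *Neurod4*, where the smallest p that 3 against 3 samples allow is 0.1. Their means lay under the limit of 1 TPM, and they were not in the fit across genes. In a fit without that limit the log2 fold change on the log2(TPM + 1) scale was 0.19 for *Neurod1* (95% interval −0.14 to 0.51) and 0.06 for *Neurod4* (−0.16 to 0.28), and both intervals hold 0. At these levels the added 1 pulls the fold change toward 0. The ratio of the mean TPM, siDerl1 over siControl, was 1.68 for *Neurod1* and 1.22 for *Neurod4*.

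*Sox11*, a SoxC factor that acts in neuronal precursors, was at a different level altogether. It was at 57.4, 37.4 and 32.3 TPM in siControl samples 1, 2 and 3, and at 55.4, 35.4 and 31.1 TPM in the siDerl1 samples. The sample numbered 1 was the highest in both groups, and the values of the 2 groups were almost equal number by number. The means were 42.4 ± 13.3 and 40.6 ± 13.0 TPM (SD, n = 3 each). The log2 fold change was −0.06 (SE 0.27, 95% interval −0.68 to 0.57, adjusted p = 0.979 from limma), and the exact permutation test gave a two-sided p of 0.7. Within the numbers 1, 2 and 3 the difference was −0.05, −0.07 and −0.05 on the log2 scale. With the number as a block the interval narrowed to −0.23 to 0.11. The sign without the block was not stable: it was −0.30 without siDerl1 sample 1 and 0.18 without siControl sample 1.

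The cytoskeletal genes came next. *Dcx* encodes doublecortin, a microtubule-associated protein of migrating and immature neurons. It was at 8.83, 10.95 and 9.57 TPM in siControl samples 1, 2 and 3 and at 6.38, 7.10 and 7.63 TPM in siDerl1 samples 1, 2 and 3. All 3 siDerl1 samples lay below all 3 siControl samples. The means were 9.78 ± 1.08 and 7.04 ± 0.627 TPM (SD, n = 3 each), a ratio of 0.719. The log2 fold change was −0.42 (SE 0.14, 95% interval −0.75 to −0.09), and within the numbers 1, 2 and 3 it was −0.41, −0.56 and −0.29. The unadjusted p from limma was 0.0188 and the adjusted p was 0.704, and 0.205 with the block, so that *Dcx* did not pass after adjustment. The exact permutation test gave a two-sided p of 0.1, the smallest that it allows. The fitted fold of 0.746 with that unadjusted p put *Dcx* past the limits in the methods, which are a fold over 1.5 or under 0.8, used here with an unadjusted p under 0.05. It was the only one of the 5 members tested to be so, where 1.91% of all genes tested were past the limits, 1.37% as lower and 0.532% as higher. It was also the only one past them with the block, where 3.53% of all genes were. This call rested on single samples. Without siControl sample 2 the log2 fold change was −0.35 (unadjusted p = 0.0746 from limma), and without siDerl1 sample 1 it was −0.36 (unadjusted p = 0.0523 from limma), and neither was past the limits.

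*Tubb3* was at 58.8, 74.9 and 70.4 TPM in siControl samples 1, 2 and 3 and at 83.2, 76.3 and 76.3 TPM in the siDerl1 samples. Here every siDerl1 sample lay above every siControl sample, although the lowest siDerl1 value, 76.25 TPM, was close to the highest siControl value, 74.92 TPM. The means were 68.1 ± 8.31 and 78.6 ± 3.97 TPM (SD, n = 3 each), a ratio of 1.15. The log2 fold change was 0.21 (SE 0.10, 95% interval −0.03 to 0.45, adjusted p = 0.763 from limma, two-sided exact permutation p = 0.1). With the sample number as a block the interval was 0.0045 to 0.42 (unadjusted p = 0.0461, adjusted p = 0.307 from limma). Most of it came from the samples numbered 1, which differed by 0.49, against 0.03 and 0.11 for the numbers 2 and 3. Without both samples numbered 1, a choice made after the values were seen, the log2 fold change was 0.07. *Tubb3* shares sequence with other β-tubulin genes, and how the reads were divided among them is uncertain.

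*Map2*, which encodes a microtubule-associated protein of dendrites, was at 35.9, 35.9 and 33.7 TPM in siControl samples 1, 2 and 3 and at 40.5, 35.02 and 26.4 TPM in the siDerl1 samples. The siDerl1 samples lay on both sides of the siControl samples. Their SD was 7.09 TPM, against 1.28 TPM in siControl NSCs, around means of 33.97 and 35.2 TPM. The log2 fold change was −0.07 (SE 0.15, 95% interval −0.42 to 0.28, adjusted p = 0.953 from limma), and it was 0.10 without siDerl1 sample 3. The difference within the numbers 1, 2 and 3 was 0.17, −0.04 and −0.34, which share no direction.

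*Stmn2*, a stathmin of growing axons, had a value of 0.13 TPM in siDerl1 sample 3 and was listed at 0 in siDerl1 samples 1 and 2 and in each siControl sample. It was the lowest of the 9 genes. Being at 0 in 5 of 6 samples, it gives no fold change.

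The RNA-binding protein genes were split in the same way. *Elavl3*, which encodes the neuronal Hu protein HuC, was at 23.7, 26.9 and 24.3 TPM in siControl samples 1, 2 and 3 and at 24.6, 29.6 and 28.2 TPM in the siDerl1 samples. The groups overlapped, while the siDerl1 sample was the higher one at each number, by 0.05, 0.13 and 0.21 on the log2 scale. The means were 24.96 ± 1.69 and 27.4 ± 2.58 TPM (SD, n = 3 each). The log2 fold change was 0.13 (SE 0.10, 95% interval −0.12 to 0.38, adjusted p = 0.860 from limma, two-sided exact permutation p = 0.2). *Rbfox3* was at 0.41, 0 and 0.66 TPM in siControl samples 1, 2 and 3 and at 0.24, 1.49 and 0.91 TPM in the siDerl1 samples. The groups overlapped, with the highest value in siDerl1 sample 2 and the listed 0 in siControl sample 2 (two-sided exact permutation p = 0.3).

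Over the list, 0 of the 5 members tested had an adjusted p under 0.05 from limma, as had 0 of all 10331 genes, the smallest adjusted p of which was 0.332. At an unadjusted p under 0.05 there was 1 member, with 6.7% of all genes, and with the sample number as a block there were 2, *Dcx* and *Tubb3*, with 15.7%. Blocked or not, there were 0 members with an adjusted p under 0.05, where with the block 0.552% of all genes had one. *Tubb3* and *Elavl3* were the 2 members with a positive log2 fold change and *Sox11*, *Map2* and *Dcx* the 3 with a negative one. The median of the 5 was −0.06, and that of all genes tested was −0.02. For 2 of the 5 the groups lay apart, against 13.6% of all genes: *Dcx* was lower in siDerl1 NSCs, as were 8.52% of all genes, and *Tubb3* was higher, as were 5.09%. The direction was the same at all 3 numbers for 4 of the 5, against 37.8% of all genes. No member was under 0.1 TPM in all 6 samples, the limit used for near zero. With a limit of 0.5 TPM there were 2, *Neurod4* and *Stmn2*.

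**Figure D2:**
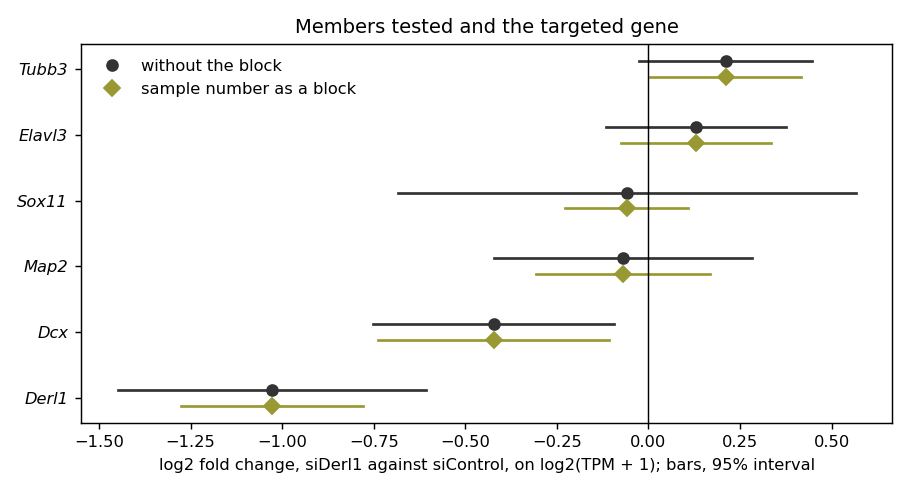
Log2 fold change of siDerl1 against siControl NSCs on the log2(TPM + 1) scale with its 95% interval from limma, for the 5 members tested and for *Derl1*, without (black circles) and with (olive diamonds) the sample number as a block. The interval of *Dcx* lay below 0 in both fits, that of *Sox11* shrank most with the block, and those of *Elavl3*, *Sox11* and *Map2* held 0 in both.

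The samples numbered 1 stood apart from the others across the series. Both lay outside the other 4 samples, on the same side, for 32.7% of all genes tested, with 15.7% above and 17% below. Of the 5 members tested, *Sox11* was the only one of this kind. Its mean was 56.4 TPM in the samples numbered 1 and 34.1 TPM in the other 4, a ratio of 1.66. On the log2 scale, sample 1 exceeded the mean of samples 2 and 3 by 0.71 in siControl NSCs and by 0.72 in siDerl1 NSCs, where the median of the absolute difference over all genes was 0.157 and 0.168. The 95th percentile over all genes was 0.789 and 0.799, and *Sox11* lay below it in both groups. For *Dcx* the same difference was −0.19 and −0.18, which is smaller than its difference between the groups. *Elavl3* gave −0.10 and −0.22. For *Tubb3* the difference changed sign, from −0.30 in siControl NSCs to 0.12 in siDerl1 NSCs. For *Map2* it was 0.04 and 0.40. Without both samples numbered 1, *Dcx* had a log2 fold change of −0.43 (unadjusted p = 0.0312, adjusted p = 0.420 from limma) and was still past the limits. The labels give no day, passage or batch for these numbers, and what set number 1 apart was not tested.

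**Figure D3:**
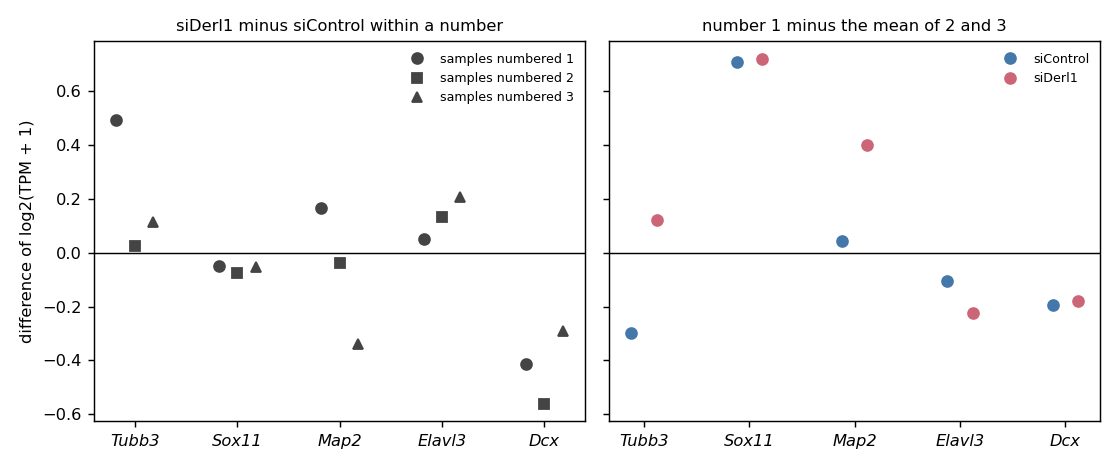
Differences of log2(TPM + 1) for the 5 members tested. The left panel gives siDerl1 minus siControl for the samples of each number, and the right panel gives sample 1 minus the mean of samples 2 and 3 in siControl (blue) and siDerl1 (red) NSCs. *Dcx* was below 0 at each number on the left, and *Sox11* stood at 0.71 and 0.72 on the right while its values on the left lay near 0.

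The genes whose profile over the 6 samples was most like those of *Dcx* and *Sox11* were found by the root mean square distance of the log2(TPM + 1) values, each centred on its own mean. For *Dcx* they were *Fam101b* (distance 0.036), *Pgap1* (0.047) and *Jag1* (0.048), which encodes a Notch ligand. *Jag1* was at 18.3, 21.4 and 20.2 TPM in siControl samples 1, 2 and 3 and at 12.6, 14.8 and 16.4 TPM in the siDerl1 samples. For *Sox11* they were *Phlda1* (0.059), *Camk1g* (0.060) and *Mylk* (0.061), which encodes myosin light chain kinase. *Phlda1* was at 289, 182 and 173 TPM in the siControl samples and at 303, 187 and 169 TPM in the siDerl1 samples. *Dcx* and *Sox11* were far from each other by this measure, at 0.469.

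The wider neuronal programme was read in 5 lists of 134 genes, of which 127 had a row and 87 were tested. Of these 87, 47 had a positive and 40 a negative log2 fold change, with a median of 0.02. There were 2 past the limits in the methods, or 2.3%, and the groups did not overlap for 12, or 13.8%, both close to the 1.91% and 13.6% of all genes. From limma 0 had an adjusted p under 0.05, with or without the block, while at an unadjusted p under 0.05 without it there were 3 higher and 5 lower in siDerl1 NSCs, beside 6.7% of all genes. The number past the limits was 0 without siControl sample 2 and 4 without siControl sample 1.

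Among the 34 neurogenic transcription factors, 30 had a row, and their levels ranged from the 476 TPM of *Sox4* to a listed 0. Among the highest were *Sox4*, the SoxC relative of *Sox11*, at 476 ± 76.2 and 445 ± 84.9 TPM in siControl and siDerl1 NSCs, and *Tcf4*, which encodes a common partner of bHLH factors, at 119 ± 6.20 and 112 ± 1.15 TPM (SD, n = 3 each). At the other end, 7 of the 30 were listed at 0 in every sample and 15 were under 1 TPM in every sample. Of the 15 tested, 5 had a positive and 10 a negative log2 fold change, with a median of −0.09, and 0 were past the limits. The groups did not overlap for 3, namely *Isl1* and *Bcl11a*, lower in siDerl1 NSCs, and *Bcl11b*, higher, which are named after their values were seen. That is 20% of the 15, beside 13.6% of all genes. *Sox4* was above the other samples in both samples numbered 1, as *Sox11* was, and its log2 fold change was −0.10 (adjusted p = 0.946 from limma).

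The genes of the neuronal cytoskeleton and growth cone were nearly all expressed, with 30 of 33 tested. Their median log2 fold change was 0.05, with 21 positive and 9 negative. The highest were *Tuba1a*, which encodes an α-tubulin of young neurons, at 2657 and 2857 TPM in siControl and siDerl1 NSCs, *Stmn1*, which encodes a stathmin that destabilizes microtubules, at 1861 and 1944 TPM, and *Tubb2b* at 866 and 928 TPM. Tubulins can share reads, and their levels are uncertain to that extent. *Stmn4*, a stathmin of neurons, was the only one past the limits. It was at 6.33, 5.30 and 3.86 TPM in siControl samples 1, 2 and 3 and at 12.57, 7.48 and 6.41 TPM in the siDerl1 samples, and every siDerl1 sample lay above every siControl sample. Its log2 fold change was 0.64 (unadjusted p = 0.0457, adjusted p = 0.738 from limma). The groups lay apart for 2 of the 30, or 6.67%, beside 13.6% of all genes. The other was *Kif5c*, a kinesin of neurons named after its values were seen, which was lower at 74.8 ± 2.48 and 61.1 ± 3.33 TPM (SD, n = 3 each) in siControl and siDerl1 NSCs. For *Kif5c* the log2 fold change was −0.29, the unadjusted p from limma 0.00446 and the adjusted p 0.704.

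Of the 17 genes of neuronal RNA-binding proteins 14 had a row and 9 were tested, with a median log2 fold change of −0.05 and 0 past the limits. The highest were *Msi1*, a stem cell RNA-binding protein, at 106 and 111 TPM, *Khdrbs3* at 67.5 and 66.5 TPM and *Rbfox2*, a splicing factor related to *Rbfox3*, at 43.5 and 41.6 TPM in siControl and siDerl1 NSCs. The relatives of *Elavl3* that mark neurons were low, with *Elavl4* at 1.98 and 1.64 TPM and *Elavl2* at 0.970 and 0.863 TPM. These 2 were chosen after their values were seen.

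Of the 32 mature neuron and synapse genes 16 were tested, and 6 were listed at 0 in all samples. The highest were *Eno2*, neuron-specific enolase, at 253 ± 23.3 and 293 ± 32.0 TPM, *Vamp2*, a synaptic vesicle protein, at 164 ± 2.03 and 173 ± 5.69 TPM, and *Gad1*, a GABA-synthesizing enzyme, at 57.8 ± 25.8 and 60.0 ± 14.3 TPM in siControl and siDerl1 NSCs (SD, n = 3 each). The median log2 fold change of the 16 was 0.10, with 12 positive and 4 negative. *Syt1*, which encodes a calcium sensor of synaptic vesicles, was past the limits, at 49.8 ± 3.40 TPM in siControl NSCs and 39.5 ± 6.25 TPM in siDerl1 NSCs, and the groups did not overlap. Its log2 fold change was −0.34 (unadjusted p = 0.0288, adjusted p = 0.704 from limma).

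Genes that hold the neuronal programme back were read as another list, with 17 of 18 tested. These include the Id proteins, which BMP signalling induces and which bind the partners of proneural factors, the Hes and Hey factors of the Notch pathway, and the REST complex. The highest were *Id3* at 1414 and 1491 TPM, *Id2* at 745 and 688 TPM and *Id1* at 448 and 496 TPM in siControl and siDerl1 NSCs. All 3 were lower in both samples numbered 1 than in the other 4, as were 17% of all genes. *Sox11* was higher in these samples, as were 15.7% of all genes, and a relation between them was not tested. The median log2 fold change of the 17 was −0.05, with 6 positive and 11 negative, and 0 were past the limits. With the sample number as a block there was 1 of the 17, *Hes5*, beside 3.53% of all genes. This Notch target, named for this call, was at 13.2 ± 12.7 TPM in siControl and 23.5 ± 13.8 TPM in siDerl1 NSCs (SD, n = 3 each). Its log2 fold change was 0.94, with a blocked p of 0.0216 unadjusted and 0.231 adjusted, both from limma. *Hes5* was at 7.19, 4.62 and 27.81 TPM in siControl samples 1, 2 and 3. The siDerl1 samples were at 8.4, 26.64 and 35.37 TPM. Its groups overlapped, and most of its difference came from the samples numbered 2. The groups did not overlap for 4, and all 4 were lower in siDerl1 NSCs: *Hdac1*, *Hdac2*, *Rcor1* and *Ptbp1*, named after their values were seen. That is 23.5% of the 17, beside 13.6% of all genes, among which there were also more that lay apart as lower (8.52%) than as higher (5.09%). *Hdac1*, which encodes a histone deacetylase, was at 283 ± 16.3 and 237 ± 15.3 TPM (SD, n = 3 each). Its log2 fold change was −0.26, with 0.704 as the adjusted p from limma, and its fold was not under 0.8.

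**Figure D4:**
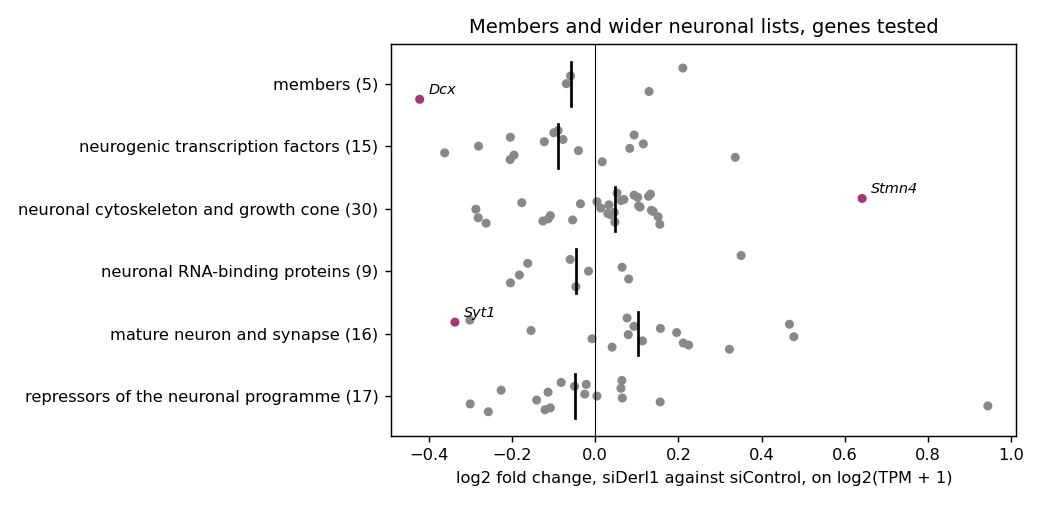
Log2 fold change of siDerl1 against siControl NSCs on the log2(TPM + 1) scale for each gene tested (points) in the members and the 5 wider lists, with the number of genes in brackets and the median as a black bar. Points are spread vertically for visibility only, and the 3 genes past the limits in the methods, *Dcx*, *Stmn4* and *Syt1*, are named and purple. The medians lay between −0.09 and 0.10.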

How the data were processed

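RNA of 6 samples of adult rat hippocampal NSCs, 3 siControl and 3 siDerl1, was sequenced from poly(A)-selected, strand-specific libraries. According to the submitters' processing notes and the study's methods, the authors used Trimmomatic (0.39) to trim reads, STAR (2.7.3a) to align them to rn6, RSEM (1.3.2) to estimate expression and edgeR (3.28.1) to test it. The authors deposited TPM, rounded to 0.01, which sum to 1000000 in each sample and keep no depth. No counting interval can therefore be given.

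Here log2(TPM + 1) was compared with limma (3.58.1, R 4.3.3; eBayes with trend) over the 10331 genes whose mean reached 1 TPM, with Benjamini-Hochberg adjustment over all of them. The pseudocount of 1 understates the change of low genes. Single genes were also compared with the two-sided exact permutation test of mean TPM over the 20 splits of 3 against 3 (scipy 1.17.1). The limits in the methods were applied to the fitted fold. The fit was tested on simulated data.

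Groups and numbers came from the sample titles. Nothing says that the samples were separate cultures or days, so p-values measure the spread between these samples, which may be technical. Deviations from the group means correlated at 0.70, 0.35 and 0.51 between samples numbered 1, 2 and 3 alike, over the genes tested. Between different numbers they were negative where number 1 was involved, but 0.34 for siControl 2 against siDerl1 3 and 0.25 for siControl 3 against siDerl1 2. The value for the samples numbered 2 was thus hardly above those across numbers 2 and 3, while that for the samples numbered 3 was higher. The number was used as a block in an alternative fit.

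The member genes and gene lists were chosen with earlier results of these data known. Named are all members, *Derl1*, the 3 most abundant genes and the genes past the limits in each wider list, and the 3 genes nearest in profile to *Dcx* and to *Sox11*. Of the genes this rule selects, 1 is not reported here. Promoter windows were the 250 bases before the RefSeq start on GRCr8. The alternatives were a pseudocount of 0.1, other filters on low values, median-of-ratios scaling, no intensity trend, the block, and each sample left out in turn.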

Additional observations from a re-analysis of the deposited data

How the results depend on the processing

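The number of members past the limits was 1 and ranged from 0 to 1 when each sample was left out in turn, with 0 without siControl sample 2 and without siDerl1 sample 1. For the 5 wider lists it was 2, was 1 where only genes of 5 TPM or more in mean were kept, and ranged from 0 to 4 with each sample left out. *Dcx* kept its direction under all 15 alternatives, with a log2 fold change from −0.49 to −0.35, and was past the limits under 13 of them. *Tubb3* and *Elavl3* kept theirs under all 15, from 0.07 to 0.28 and from 0.08 to 0.20. With each sample left out, *Sox11* lay between −0.30 and 0.18 and *Map2* between −0.20 and 0.10. *Sox11* reversed to 0.18 without siControl sample 1, to 0.02 without siDerl1 sample 2 and to 0.11 without siDerl1 sample 3, and *Map2* to 0.10 without siDerl1 sample 3. The smallest adjusted p of any member from limma under the alternatives was 0.205, that of *Dcx* with the replicate block. For *Derl1* the log2 fold change of −1.03 passed after adjustment with the replicate block (adjusted p = 0.00884 from limma), but not with the block when low genes were kept (0.104) or with no intensity trend (0.229), and it passed, at −0.83, without both samples numbered 1 (adjusted p = 0.00696), and the cause was not tested. Besides *Derl1* and *Gfap*, the replicate block changed no call of a gene named above at an adjusted p under 0.05. It put 3 genes of the wider lists past the limits. The alternative without both samples numbered 1, which leaves 2 samples per group, was added after the data were seen. With 0.5 in place of 0.1 TPM as the limit for near zero, the count of members went from 0 to 2. TPM gives no depth, so how far a listed 0 lies from detection is unknown.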

Other observations

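Some values of neuronal genes belong to no comparison above and were chosen after they were seen. *Dcx* and *Tubb3*, which are both read as markers of immature neurons, lay apart in opposite directions, and their ratio was therefore formed in each sample. *Dcx* was at 15.0, 14.6 and 13.6 per 100 TPM of *Tubb3* in siControl samples 1, 2 and 3, and at 7.67, 9.30 and 10.01 in the siDerl1 samples. The ratio was lower in each siDerl1 sample than in every siControl sample. It was not tested, since both genes had been seen to lie apart.

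Genes of excitatory and of GABAergic neurons were each found at very different levels. *Neurod2* and *Neurod6* were listed at 0 in all 6 samples, and *Tbr1* stood at no more than 0.12 TPM in any. *Prox1*, the factor of granule neurons, was at 9.38 ± 2.66 TPM in siControl NSCs and 7.98 ± 2.18 TPM in siDerl1 NSCs (SD, n = 3 each), and *Slc17a7*, which encodes a vesicular glutamate transporter, at 6.56 ± 1.41 and 7.66 ± 1.59 TPM. *Dlx2*, a homeobox factor of GABAergic precursors, was at 121 ± 33.8 and 106 ± 58.8 TPM, and *Dlx1* at 68.5 ± 7.17 and 62.0 ± 20.3 TPM. Both were lower in the samples numbered 1 than in the other 4. *Gad2* and *Slc32a1*, which encode a GABA-synthesizing enzyme and the vesicular GABA transporter, were listed at 0 in all samples, although *Gad1* was expressed.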
